A study of Mus musculus with 8 samples.

Results

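The antibody secretion genes described here are Ell2, Xbp1, Jchain, Sdc1, Mzb1, Hspa5, Hsp90b1, Pdia4 and Creld2. They were taken by name as genes that a B cell uses when it turns into an antibody-secreting cell. The rule uses no measured value, but it was set with earlier results of these data known. They are 9 of the 21938 protein-coding genes that were placed in the 50 kb bins of the contact matrices, and no 2 of them share a start bin, though 6 share theirs with other genes. For each gene the contacts of its start bin with the bins up to 2 Mb to either side were followed through the first cell cycle of activated B cells.

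The measurements came from 8 in situ Hi-C libraries, in which crosslinked chromatin is cut with the restriction enzyme MboI, nearby ends are ligated, and each sequenced pair of ends records a contact. Splenic B cells from mice that the methods give as young adult males were isolated by depletion of other cells and labelled with the division dye CellTrace Violet (CTV). They were cultured with 25 µg/ml lipopolysaccharide (LPS) and sorted as activated cells that had not yet divided. The 4 groups held 2 biological replicates each: C57BL/6 cells after 3 h, after 10 h and after 33 h (imminent division), and C57BL/6 FUCCI cells after 33 h that were sorted before DNA synthesis (pre-S). The comparisons ask how the surroundings of these genes changed from 3 h to 10 h, from 10 h to each 33 h group, and between the 33 h groups. FUCCI mice carry fluorescent reporters of the cell cycle phase, and the pre-S cells were sorted on those reporters, so mouse strain and sort gate cannot be told apart from the pre-S group. All groups carried LPS stimulation and CTV, none was unstimulated, and the imminent division gate was set on the lack of division and not on a phase of the cycle.

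The libraries held 88703088 to 218945191 read pairs, and 70.9% to 75.1% of the autosomal pairs joined bins of the same chromosome (cis). The second imminent division library stood apart on the sex chromosomes, with 3.74% of read ends on X against 2.39% to 2.84% in the other 7 libraries and 0.0490% on Y against 0.0804% to 0.123%. The methods name male mice only, and why this library differs was not tested. Every result below is on autosomes. Calls at the 9 genes that change without that library are given both ways, except that calls on single bin pairs are given as numbers. Replicates of a group differed by more than counting noise, with a chi-square of 1.21 to 4.53 per gene-start bin, so each was counted as a sample of its own. Hi-C holds no expression, and the compartment of marker genes did not separate cell types: start bins of 8 of 8 B cell markers, 6 of 6 T cell markers, 6 of 6 myeloid markers and 4 of 6 liver markers lay in the open A compartment. In a population of cells, a contact made in fewer cells and a contact made less often in each cell cannot be told apart.

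An antibody-secreting cell makes immunoglobulin chains in bulk, carries them into the endoplasmic reticulum (ER), folds and joins them there, and exports them. Ell2 is an elongation factor of RNA polymerase II that favours the secreted form of immunoglobulin heavy chain mRNA, and Xbp1 is the transcription factor of the unfolded protein response that enlarges the ER. Jchain encodes the chain that joins IgM and IgA into polymers, and Sdc1 encodes syndecan-1 (CD138), the surface marker of plasma cells. Mzb1 is an ER protein that helps IgM to assemble, Hspa5 (BiP) and Hsp90b1 are chaperones of the ER lumen, Pdia4 is a protein disulphide isomerase, and Creld2 is an ER protein induced by ER stress.

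The promoters of 3 of the ER genes carry the ER stress response element (ERSE), the sequence through which the unfolded protein response acts on chaperone genes, and they are shown because they lie in the start bins of 3 genes described below. The searched form was CCAAT followed after 9 bases by CCACG, on either strand, in windows from 250 bases before to 50 after each start site in RefSeq of GRCm38.p6. It was found in 39 of 32851 windows (0.119%) and in 3 of the 8 genes of this set that have an entry. Mzb1 has none. The 250 bases before each start site follow, 5′ to 3′ on the strand of the gene, with the element in capitals. Contacts were counted from GENCODE starts, which lie inside the printed window at Hspa5 (chr2:34771970) and Hsp90b1 (chr10:86705509). The window of Hsp90b1 holds the element on both strands, and that of Creld2 holds it on the reverse strand.
Hspa5, chr2:34771840-34772089, plus strand: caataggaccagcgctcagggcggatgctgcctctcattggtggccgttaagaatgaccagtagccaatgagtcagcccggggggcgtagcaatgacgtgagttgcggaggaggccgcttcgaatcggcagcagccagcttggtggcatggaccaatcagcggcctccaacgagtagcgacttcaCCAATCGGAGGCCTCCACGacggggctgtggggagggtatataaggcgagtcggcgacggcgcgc
Hsp90b1, chr10:86705445-86705694, minus strand: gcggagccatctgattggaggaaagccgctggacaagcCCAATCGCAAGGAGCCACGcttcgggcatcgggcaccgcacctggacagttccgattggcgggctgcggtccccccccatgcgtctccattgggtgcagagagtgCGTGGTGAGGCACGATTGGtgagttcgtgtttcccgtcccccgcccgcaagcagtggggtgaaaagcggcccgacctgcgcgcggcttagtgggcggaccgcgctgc
Creld2, chr15:88819396-88819645, plus strand: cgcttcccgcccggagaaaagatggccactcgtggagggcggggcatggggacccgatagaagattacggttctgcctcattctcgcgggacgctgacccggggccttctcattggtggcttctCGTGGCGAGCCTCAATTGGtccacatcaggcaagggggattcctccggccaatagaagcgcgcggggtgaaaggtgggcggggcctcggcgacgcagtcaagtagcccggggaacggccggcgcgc
A second form of the element, ERSE-II, was searched in the same windows. So were TGACGTGG, the core of the separate unfolded protein response element (UPRE), the Xbp1 core GACGTGG, and the short core of the ERSE. The ERSE-II form, ATTGG and CCACG with 1 base between them (0.0365% of windows), TGACGTGG (0.676%) and GACGTGG, which is part of it (2.42%), were found in none of the 8 genes, which says only that these letters are not in these windows. The short core CCACG, which is part of the ERSE, was found in 5 of 8 genes (Creld2, Hsp90b1, Hspa5, Pdia4 and Sdc1) and in 32.8% of all windows.

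The genes lie on 9 different autosomes of GRCm38. Ell2 spans chr13:75706757-75772364 on the plus strand and so reaches beyond its start bin, which holds no other protein-coding start. Xbp1 (chr11:5520659-5525893, plus) shares its start bin with Ccdc117. Jchain (chr5:88519809-88527891, minus) and Sdc1 (chr12:8771323-8793715, plus) have their start bins to themselves. Mzb1 (chr18:35647267-35649367, minus) shares its bin with Slc23a1, Hspa5 (chr2:34771970-34777547, plus) with Gapvd1 and Rabepk, and Hsp90b1 (chr10:86690209-86705509, minus) with Ttc41. Pdia4 (chr6:47796141-47813430, minus) shares its bin with Zfp398 and Zfp786, and Creld2 (chr15:88819646-88826683, plus) with Alg12, so that the values of these bins are not those of 1 gene alone. Gene density around them ran from 15 protein-coding starts within 2 Mb at Sdc1 to 103 at Mzb1, with a median of 43 against 55 over all genes.

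Promoter interactivity was taken as the read pairs between a start bin and the bins up to 2 Mb away, normalised between libraries so that the median gene-start bin held 1894 to 1899 in each. Averaged over the 8 libraries, Xbp1 was the highest of the 9 with 2491 normalised read pairs (percentile 84.5 among gene-start bins), followed by Mzb1 with 2421 and Hspa5 with 2314. Ell2 (1948), Hsp90b1 (1869), Sdc1 (1853) and Creld2 (1714) lay in the middle, and Pdia4 (1471) and Jchain (1424, percentile 24.9) were lowest. Neighbours in this order overlapped in their library values, while the upper 3 lay above the other 6 within each of the 8 libraries. The normalisation removes the depth of the library but not the mappability or MboI content of a bin, so these are levels of bins and not of promoters alone.

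**Figure D1:**
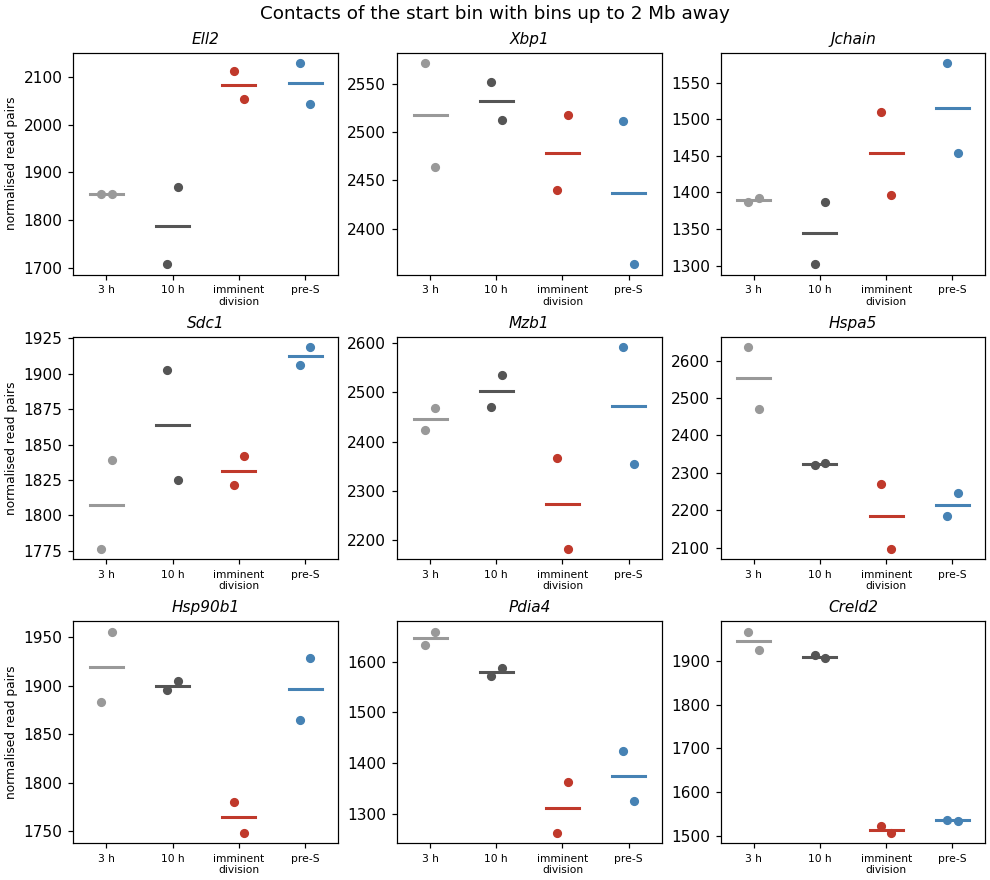
Promoter interactivity of the 9 start bins in each library. The vertical axes give normalised read pairs within 2 Mb, each point is 1 library, each bar is the mean of the 2 libraries of a group, and the axes differ between panels. Ell2 lies between 1707 and 1869 up to 10 h and between 2044 and 2129 at 33 h, while Creld2 drops from 1906 to 1967 up to 10 h to 1506 to 1537 at 33 h.

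Between 10 h and imminent division, promoter interactivity rose at Ell2 and fell at Mzb1, Hsp90b1, Pdia4 and Creld2. These are 5 of 9 genes, where 44.2% of all 13276 gene-start bins tested changed, 22.2% upwards and 21.9% downwards. Ell2 held 1707 and 1869 normalised read pairs at 10 h against 2113 and 2055 at imminent division, a log2 change of 0.22 (SE 0.0435, edgeR FDR = 0.000657). Both imminent division libraries were above both 10 h libraries and both 3 h libraries (1856 and 1855). Creld2 held 1914 and 1906 at 10 h against 1522 and 1506 at imminent division, and fell by 0.34 on the log2 scale (SE 0.0389, edgeR FDR = 6.26e-06), the largest change of the set. Pdia4 held 1572 and 1587 at 10 h against 1262 and 1362 at imminent division, and fell by 0.27 (SE 0.0465, edgeR FDR = 0.000208). At both genes the groups were far apart compared with the spread of their replicates. Mzb1 held 2471 and 2535 at 10 h against 2366 and 2182 at imminent division (log2 change −0.14, SE 0.0453, edgeR FDR = 0.0162). Hsp90b1 held 1895 and 1904 at 10 h against 1780 and 1748 at imminent division (log2 change −0.11, SE 0.0395, edgeR FDR = 0.033). Their groups did not overlap either, but lay closer together. Here and below, the share of all gene-start bins without overlap was not computed.

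The remaining 4 genes did not pass the test at imminent division. Xbp1 had 2552 and 2513 normalised read pairs at 10 h against 2440 and 2517 at imminent division, and Sdc1 had 1903 and 1825 and then 1821 and 1842, and in both the groups overlapped. Jchain went from 1302 and 1387 to 1510 and 1397 (log2 change 0.11, edgeR FDR = 0.0872) and Hspa5 from 2321 and 2327 to 2270 and 2097 (log2 change −0.09, edgeR FDR = 0.0882), with no overlap. The median log2 change over the 9 genes was −0.09, against 0.0014 over all gene-start bins. Without the second imminent division library, Mzb1 (log2 change −0.07, edgeR FDR = 0.257) and Hsp90b1 (edgeR FDR = 0.15) no longer passed and Jchain did (log2 change 0.16, edgeR FDR = 0.0205), and without either 10 h library 3 genes passed, again without Mzb1 and Hsp90b1. In those fits 5152, 3164 and 3637 gene-start bins passed, against 5864 with all libraries. When only strong partners were summed, those above a curve on distance and at any distance on the chromosome, Pdia4 turned from a fall to a rise of 0.14 (edgeR FDR = 0.0104), from 1158 and 1191 at 10 h to 1287 and 1298, while Sdc1 rose by 0.25 (edgeR FDR = 3.36e-06) and Mzb1 no longer passed (edgeR FDR = 0.11). With TMM factors (1 trimmed-mean scaling factor for each library) in place of the loess offsets, or with DESeq2, which is also another test, Xbp1 (log2 change −0.15 by both), Hspa5 (−0.18) and Jchain (0.23) passed too, and Hsp90b1 did not by DESeq2 (DESeq2 FDR = 0.0677).

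In pre-S cells, interactivity relative to 10 h rose at Ell2 and Jchain and fell at Pdia4 and Creld2. These are 4 of 9 genes, where 37.2% of all gene-start bins changed, 19.2% upwards and 18% downwards. This comparison shares its 10 h libraries with the one before. Ell2 held 2129 and 2044 normalised read pairs in pre-S cells (log2 change 0.22, SE 0.0471, edgeR FDR = 0.00155) and Jchain 1577 and 1454 (log2 change 0.17, SE 0.0543, edgeR FDR = 0.0181). Creld2 held 1537 and 1535, a fall by 0.31 on the log2 scale (SE 0.0426, edgeR FDR = 6.89e-05), and Pdia4 held 1423 and 1325, a fall by 0.20 (SE 0.0509, edgeR FDR = 0.0052). In all 4 genes both pre-S libraries lay on the same side of both 10 h libraries. The same held at the uncalled Xbp1, Sdc1 and Hspa5, so this separation does not mark the called genes. Xbp1 (2512 and 2363), Sdc1 (1906 and 1919), Mzb1 (2591 and 2354), Hspa5 (2184 and 2246) and Hsp90b1 (1865 and 1929) did not pass, and the median of the 9 was −0.016 against −0.0024 over all gene-start bins. Without the first pre-S library the calls at Ell2 (edgeR FDR = 0.0544) and Jchain (edgeR FDR = 0.311) were lost, without the second that at Pdia4 (edgeR FDR = 0.0824), and without the first 10 h library that at Jchain (edgeR FDR = 0.158). When only strong partners were summed, Ell2 (log2 change 0.06, edgeR FDR = 0.475), Jchain (edgeR FDR = 0.0814) and Pdia4 (log2 change −0.07, edgeR FDR = 0.287) no longer passed, and with bin coverage in the offsets (the interchromosomal contacts of the bin in each library) Jchain (log2 change 0.08, edgeR FDR = 0.384) and Pdia4 (edgeR FDR = 0.102) did not. With TMM factors Pdia4 was lost (log2 change −0.08, edgeR FDR = 0.184) and Xbp1 (−0.16) and Hspa5 (−0.15) passed. The fall at Creld2 passed under each of the 16 alternatives.

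No gene of the set passed the test between 3 h and 10 h, where 0.0678% of gene-start bins did, nor between imminent division and pre-S, where 4.06% did. The latter share rests on 539 bins, which became 11 and 17 without the first or second pre-S library, 67 without the second imminent division library, 145 and 156 without a 10 h library, and 1026 to 1163 without any of the other 3. By edgeR with an unadjusted p under 0.05 there were 1 and 2 genes, where 12.0% and 21.7% of gene-start bins had one, and DESeq2 called 0 genes in both. The widest difference from 3 h to 10 h was at Hspa5, with 2635 and 2470 and then 2321 and 2327 normalised read pairs (log2 change −0.13, edgeR FDR = 0.271). Ell2 held 2113 and 2055 at imminent division, against 2129 and 2044 in pre-S cells, and Creld2 held 1522 and 1506 and then 1537 and 1535. At both genes both 33 h groups lay on the same side of 10 h.

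The same contacts were then divided by distance, into near contacts with bins 50 to 450 kb away and far contacts with bins 500 kb to 2 Mb away. Near contacts changed at 5 of 9 genes between 10 h and imminent division (38.1% of gene-start bins), up at Ell2 (log2 change 0.24) and down at Mzb1 (−0.23), Hsp90b1 (−0.17), Pdia4 (−0.25) and Creld2 (−0.33). In pre-S cells they changed at 5 genes (28.8%), up at Ell2 (0.30), Jchain (0.16) and Sdc1 (0.14) and down at Pdia4 (−0.15) and Creld2 (−0.28). Far contacts changed at 5 genes at imminent division (51.8%), up at Jchain (0.22) and down at Xbp1 (−0.26), Sdc1 (−0.30, but 0.03 with TMM factors), Pdia4 (−0.25) and Creld2 (−0.37). In pre-S cells they changed at 3 genes (36.7%), up at Jchain (0.33) and down at Xbp1 (−0.28) and Creld2 (−0.28). From 3 h to 10 h no gene passed for near (0.43%) or far contacts (1.92%), with 1 and 3 genes at an unadjusted p under 0.05 by edgeR (12.2% and 16.7% of bins), and without the second imminent division library Hspa5 passed for near contacts there (log2 change −0.18, edgeR FDR = 0.031 against 0.0668 with it). Between the 33 h groups no gene passed for far contacts (7.7%), with 1 gene at an unadjusted p under 0.05 (24.1%).

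Near and far contacts passed together at imminent division at Pdia4 and Creld2, and neither passed at Hspa5. At Ell2, Mzb1 (far edgeR FDR = 0.674) and Hsp90b1 (far edgeR FDR = 0.859) near contacts passed and far contacts did not, and at Xbp1, Jchain and Sdc1 (near edgeR FDR = 0.623) the reverse held. The difference between the ranges was not tested. Xbp1 held 575 and 614 normalised far read pairs at 10 h, then 492 and 503 at imminent division, with 511 and 466 in pre-S cells, while its near contacts overlapped between the groups (1992 and 1925, 1933 and 2018, 1997 and 1898). Ell2 rose in its near contacts, from 1142 and 1274 at 10 h to 1456 and 1417 at imminent division, with 1516 and 1465 in pre-S cells, while its far contacts did not pass (edgeR FDR = 0.0668 and 0.622). Jchain rose in its far contacts, from 386 and 363 to 457 and 414 and to 480 and 456. Jchain also passed for near contacts in pre-S cells (edgeR FDR = 0.0494). Creld2 fell at both ranges relative to 10 h. Its far contacts held 338 and 299 at 3 h, 334 and 401 at 10 h, then 292 and 284 at imminent division. Pre-S cells held 299 and 315, within the values of 3 h. With TMM factors the far calls at imminent division were those of Xbp1 and Jchain, without Sdc1 (edgeR FDR = 0.851), Pdia4 (edgeR FDR = 0.423) and Creld2 (log2 change −0.18, edgeR FDR = 0.0842), and the near contacts of Xbp1 passed (log2 change −0.14, edgeR FDR = 0.0277). In pre-S cells the near calls at Sdc1 (log2 change 0.07, edgeR FDR = 0.212) and Pdia4 (edgeR FDR = 0.163) and the far call at Creld2 (edgeR FDR = 0.215) were lost with TMM factors, and the near contacts of Hspa5 passed in both comparisons (log2 changes −0.21 and −0.14). With bin coverage in the offsets, the far calls at Sdc1 (edgeR FDR = 0.12) and Jchain (edgeR FDR = 0.102) were lost at imminent division, and in pre-S cells the far call at Creld2 (log2 change −0.06, edgeR FDR = 0.682) and the near calls at Jchain (log2 change 0.03, edgeR FDR = 0.781), Sdc1 (edgeR FDR = 0.0747) and Pdia4 (edgeR FDR = 0.206). Without the second 10 h library none of the 5 far changes at imminent division and none of the 3 in pre-S cells passed, and without the first 10 h library 3 of the 5 passed, while the near changes of Ell2 and Creld2 passed with any library left out. In pre-S cells, near changes passed at 2 genes without the first 10 h library, 3 without the second, 2 without the first pre-S library and 3 without the second, and far changes at 1 gene without the first pre-S library and at 5 without either 3 h library. Over all gene-start bins the near calls in pre-S cells went in the same fits from 3814 to 1922, 2242, 1344 and 2733, and the far calls from 4835 to 1901 without the first pre-S library, to 2452 without the second 10 h library, and to 5480 and 5453 without a 3 h library. At imminent division the far calls went from 6822 to 5082 and 4388 without the first or second 10 h library.

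Near contacts of Mzb1 also differed between the 33 h groups, the only 1 of the 9 where 10.2% of gene-start bins differed. They held 1626 and 1501 normalised read pairs at imminent division and 1841 and 1673 in pre-S cells, against 1796 and 1855 at 10 h (log2 change −0.17 for imminent division over pre-S, SE 0.0494, edgeR FDR = 0.0194). The groups did not overlap. The call was lost without the second imminent division library (log2 change −0.11, edgeR FDR = 0.296) and without the first pre-S library (edgeR FDR = 0.392).

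**Figure D2:**
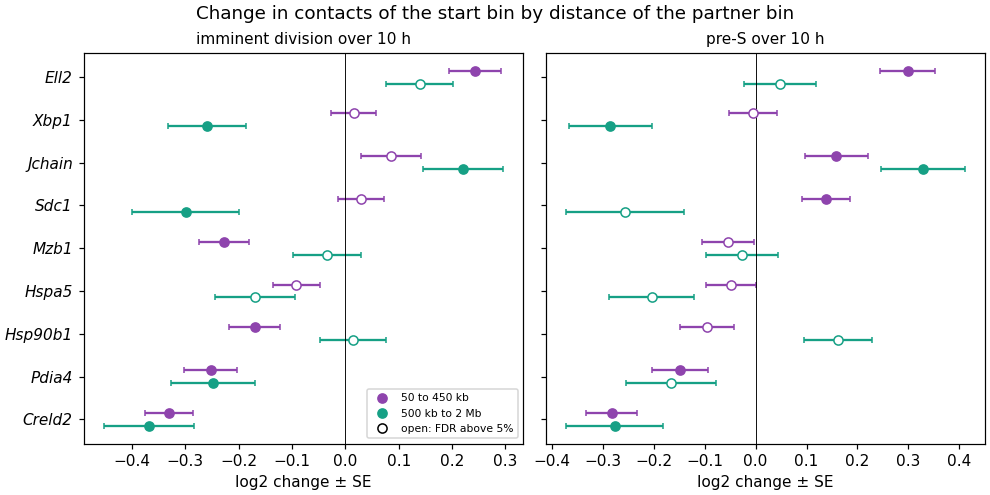
Log2 change of near contacts (50 to 450 kb, purple) and far contacts (500 kb to 2 Mb, green) from 10 h to imminent division (left) and to pre-S (right) for the 9 start bins. Points are fitted changes, bars are standard errors, and open points have an FDR above 5%. Ell2 has filled points above 0 for near contacts (0.24 and 0.30), Xbp1 has filled points below 0 for far contacts (−0.26 and −0.28), and Creld2 has filled points below 0 for both.

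At the level of single bin pairs, 399 pairs between a start bin and a bin up to 2 Mb away could be tested, and 27 were differential interactions (DIs) between 10 h and imminent division. Of these 2 were stronger and 25 weaker, where 2.31% of all 1229206 bin pairs up to 2 Mb apart were DIs (0.733% stronger and 1.58% weaker). These shares, here and below, are over all autosomal bins, and the share among pairs of gene-start bins was not computed. By gene there were 6 weaker pairs at Mzb1, 6 at Pdia4, 4 at Xbp1, 3 at Hspa5, 3 at Creld2, 2 at Hsp90b1 and 1 at Sdc1, and 1 stronger pair each at Ell2 and Jchain. The median log2 change of the tested pairs was −0.15, against 0.016 over all bin pairs tested at any distance. In pre-S cells there were 4 DIs, 1 stronger and 3 weaker, where 0.683% of bin pairs were DIs (0.402% stronger and 0.282% weaker). The median log2 change of the tested pairs there was −0.16, against 0.0017 over all bin pairs tested at any distance. The pre-S libraries held 117386199 and 105015427 read pairs, against 180325399 and 218945191 at imminent division. The numbers of DIs therefore do not compare the size of the change, and the effect of depth was not tested. Pairs of 1 start bin share that bin and their neighbours, so they are not independent counts. Between 3 h and 10 h there were 0 DIs (0.000732% of all pairs), with 29 pairs at an unadjusted p under 0.05 by edgeR (86517 of 1458474 over all distances), and between the 33 h groups 0 (0.42%), with 42 such pairs (144423 over all distances), and DESeq2 called 0 in both. Without the second imminent division library 11 weaker and 0 stronger pairs were called at imminent division, without the first 8 in all, and without the first or second 10 h library 10 and 6. The count over all distances fell in the same fits from 29642 to 13747, 9236, 8110 and 3200. In pre-S cells 1 to 2 pairs were called without any 1 of the 10 h or pre-S libraries, where the count over all distances fell from 8717 to between 758 and 2258. The split over all distances differed between fits. At imminent division 9401 of 1458474 pairs were stronger and 20241 weaker here, and DESeq2, another test that gave an adjusted p for 101201 pairs, called 64 and 7363. In pre-S cells there were 5090 and 3627 here against 3338 and 7909 with TMM factors.

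**Figure D3:**
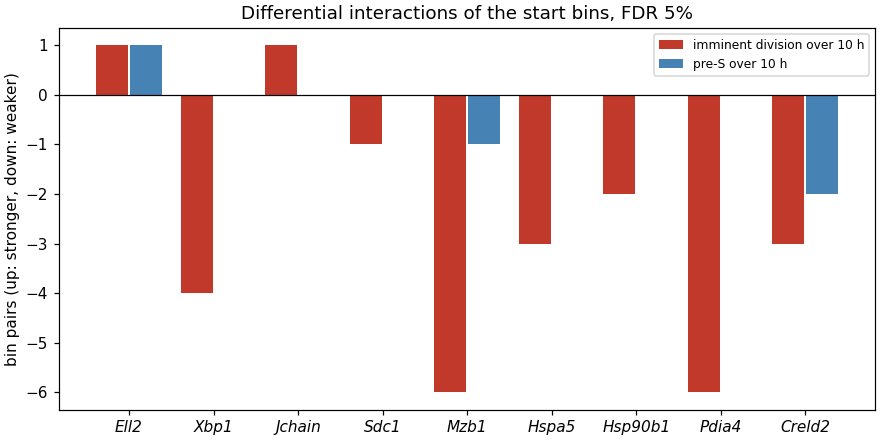
Number of differential bin pairs (edgeR FDR under 5%) between each start bin and bins up to 2 Mb away, stronger pairs above the zero line and weaker pairs below it. Red bars are imminent division over 10 h and blue bars are pre-S over 10 h. The pre-S libraries held fewer read pairs, and the median log2 changes of the tested pairs were −0.15 and −0.16. Weaker pairs at imminent division are most frequent at Mzb1 and Pdia4, with 6 each, and Ell2 and Jchain hold the stronger ones.

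The clearest weaker pair joined Mzb1 to the bin 100 kb upstream, which holds the starts of Tmem173, Dnajc18, Ecscr and 1700066B19Rik. It held 268 and 273 normalised read pairs at 10 h, then 184 and 180 at imminent division, with 192 and 197 in pre-S cells, and fell by 0.57 on the log2 scale at imminent division (edgeR FDR = 9.39e-05) and by 0.48 in pre-S cells (edgeR FDR = 0.0147). At 3 h it had held 196 and 229, so the high values were those of 10 h. The pair of Creld2 with the smallest p was the bin 100 kb downstream, within Ttll8, with 216 and 182 at 10 h, then 127 and 140 at imminent division, against 123 and 109 in pre-S cells (log2 change −0.56, edgeR FDR = 0.00126, and −0.76, edgeR FDR = 0.000163). Creld2 also lost contact with the bin 500 kb downstream that holds Adm2, Miox and Sbf1 (log2 change −0.79 and −0.88). Every 33 h library was below every earlier library in these pairs of Creld2. The pairs were chosen on these values, so their place relative to 10 h is no added support. With bin coverage in the offsets both pairs of Creld2 missed the threshold, the nearer one with log2 changes of −0.31 (edgeR FDR = 0.155) and −0.46 (edgeR FDR = 0.123), as did that of Mzb1 in pre-S cells (edgeR FDR = 0.0599).

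Hspa5 lost contact with 3 bins downstream. The pair with the smallest p reached 500 kb, to the start bin of the actin-severing protein gene Gsn, with 66.8 and 67.6 at 10 h against 24.5 and 43.0 at imminent division (log2 change −0.96, edgeR FDR = 0.0012). At Xbp1 the leading pair reached 500 kb upstream, into Ap1b1, with 47.0 and 61.5 at 10 h against 29.7 and 28.5 at imminent division (log2 change −0.92, edgeR FDR = 0.00614). At Hsp90b1 it reached the start bin of Syn3, 250 kb downstream, with 102 and 64.5 and then 55.3 and 43.9 (log2 change −0.72, edgeR FDR = 0.0105), and at Sdc1 the bin of Gdf7 and Hs1bp3, 450 kb upstream, with 40.03 and 41.0 and then 24.9 and 19.2 (log2 change −0.89, edgeR FDR = 0.0287). In each of these the imminent division libraries were below the 10 h libraries. The pairs were picked by their p in this comparison, so this is no added support. At 3 h the pair of Hspa5 held 68.9 and 66.1, and that of Hsp90b1 88.4 and 73.7. The pair of Xbp1 held 36.6 and 38.3 at 3 h, and that of Sdc1 26.2 and 35.1. At Xbp1 and Sdc1 both 10 h libraries were thus above both 3 h libraries. The pair of Sdc1 was lost with bin coverage in the offsets (log2 change −0.52, edgeR FDR = 0.248).

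The stronger pairs lay at Ell2 and Jchain. Those at imminent division were not called without the second imminent division library. At imminent division the start bin of Ell2 gained contact with the next bin downstream, which holds the rest of the Ell2 gene, from 213 and 261 at 10 h to 314 and 308 (log2 change 0.38, edgeR FDR = 0.0126), and pre-S cells held 290 and 294. This gain shrank to 0.09 with TMM factors (edgeR FDR = 0.671) and to 0.10 by DESeq2 (DESeq2 FDR = 0.77). In pre-S cells it gained contact with a bin 350 kb upstream that holds no protein-coding gene, from 27.2 and 37.9 to 73.9 and 63.7 (log2 change 1.07, edgeR FDR = 0.00576), and imminent division held 51.5 and 45.1. Jchain gained contact at imminent division with the bin of Gm7714, 250 kb downstream, from 8.16 and 9.02 to 22.8 and 19.9 (log2 change 1.36, edgeR FDR = 0.0298), a pair of few reads that held 13.8 and 14.2 at 3 h and 8.41 and 8.45 in pre-S cells.

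The 6 weaker pairs of Pdia4 were with 6 bins in a row, 300 to 550 kb downstream, a stretch with Ezh2, Cul1 and the end of Cntnap2. The pair with the smallest p, 350 kb away at the start of Cul1, held 38.9 and 30.7 normalised read pairs at 10 h, then 13.5 and 14.8 at imminent division, with 21.1 and 23.4 in pre-S cells (log2 change −1.27 for imminent division over 10 h, edgeR FDR = 0.00337). The share of its contacts within 2 Mb that lay upstream was 62.2% and 64.6% at 3 h, 67.7% and 66.1% at 10 h, then 77.2% and 73.9% at imminent division, with 68.5% and 68.2% in pre-S cells. Contacts of Pdia4 were thus most one-sided at imminent division, away from Ezh2 and Cul1. At Hspa5 the upstream share rose from 29.9% and 32.7% at 10 h to 40.1% and 38.3%, and at Creld2 from 25.1% and 25.5% to 30.9% and 29.6%, so these became less one-sided. At Hsp90b1 it went from 45.0% and 48.7% to 50.3% and 49.2%. It was lower at imminent division at Mzb1 (57.1% and 55.4%, then 50.5% and 50.7%), Jchain (67.2% and 67.5%, then 63.8% and 64.2%) and Sdc1 (37.9% and 39.7%, then 37.6% and 35.5%). The groups overlapped at Ell2 and Xbp1, and these shares were not tested. Of the 80 partner bins of Pdia4, 2 downstream were left out for their coverage, and the start bins of the other 8 genes lacked none.

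**Figure D4:**
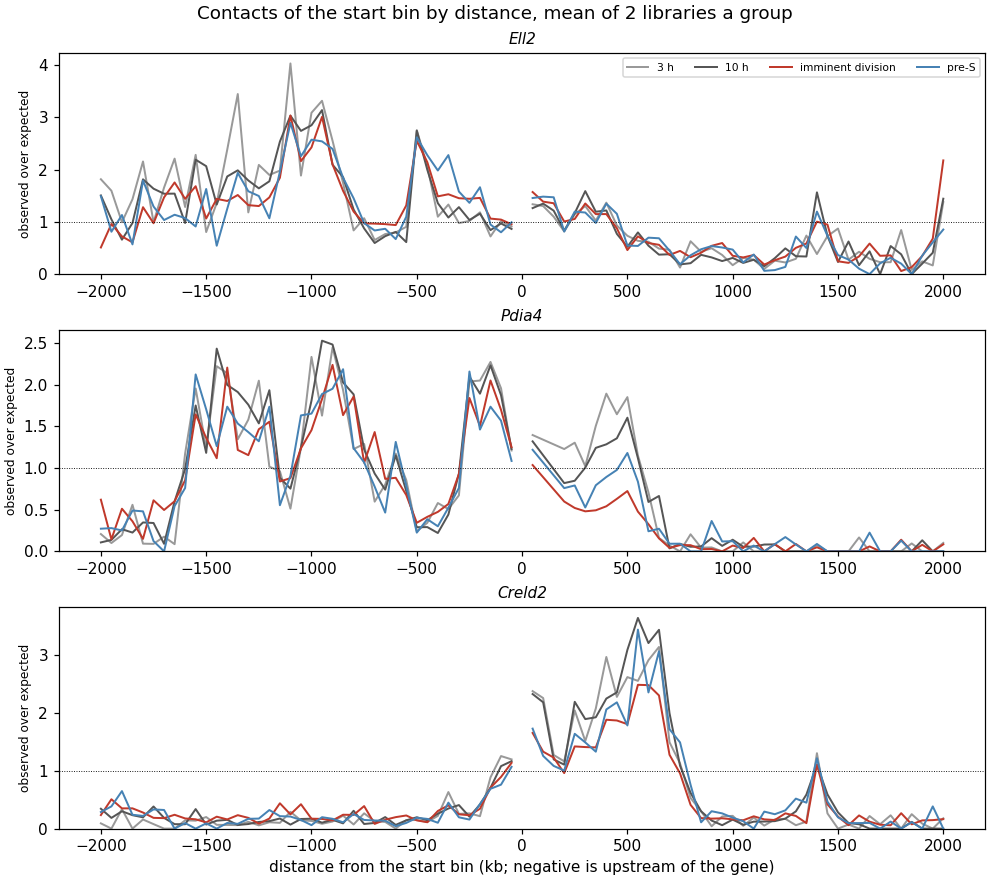
Observed over expected contacts of the start bins of Ell2, Pdia4 and Creld2 with bins up to 2 Mb away, as the mean of the 2 libraries of each group against the distance from the start bin in kb, negative upstream of the gene. The expected count is the mean at that distance on the chromosome in the same library. Downstream of Pdia4 the imminent division line runs below the 10 h line between 300 and 550 kb.

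The insulation score fell at most of these genes by 33 h. The insulation score is the log2 mean contact between the 500 kb before and the 500 kb after a bin, set against the median bin of the library, so a lower score means fewer contacts across the bin. It fell at 7 of 9 genes from 10 h to imminent division and at the same 7 genes in pre-S cells, in a genome where 58.7% and 60.8% of all bins changed and where the score fell in 56% and 59.4% of gene-start bins. Pdia4 fell most: its score was 0.319 and 0.225 at 3 h, 0.00342 and 0.0515 at 10 h, then −0.944 and −0.875 at imminent division, with −0.692 and −0.796 in pre-S cells, a change of −0.94 (SE 0.0655, limma FDR = 7.1e-06) and −0.77 (limma FDR = 2.36e-05). All 33 h libraries were below all earlier ones. The median change of the 9 genes was −0.38 in both comparisons, against −0.21 and −0.22 over gene-start bins and −0.0083 and −0.050 over all bins.

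Mzb1 fell by 0.53 at imminent division and by 0.42 in pre-S cells, from scores of 0.681 and 0.703 at 10 h to 0.0891 and 0.232 and to 0.273 and 0.280. Hspa5 fell by 0.45 in both, Xbp1 by 0.44 and 0.38, Creld2 by 0.38 and 0.37, Hsp90b1 by 0.38 and 0.39 and Sdc1 by 0.34 and 0.23. The groups did not overlap at any of the 7 genes, nor at Ell2 and Jchain below, and the share over all bins was not computed. Ell2 did not pass (scores of 0.760 and 0.771 at 10 h, then 0.852 and 0.913 at imminent division, with 0.880 and 0.839 in pre-S cells) and was the 1 gene with higher values at 33 h. Jchain did not pass either (changes of −0.13 and −0.12, limma FDR = 0.0721 and 0.0879). From 3 h to 10 h 0.0324% of bins changed (15 of 46276, but 5124 without the first 3 h library, 2764 without the second and 0 without either 10 h library) and none of the 9 genes did, with 1 gene at an unadjusted p under 0.05 by limma (12.3% of bins), and between the 33 h groups 8.89% of bins and none of the genes did, again with 1 (27.2%). When the libraries were brought to the same distribution of scores, Xbp1 (limma FDR = 0.41 and 0.29) and Sdc1 (limma FDR = 0.0756 and 0.713) no longer passed, Jchain fell by 0.27 in both and Ell2 rose by 0.40 and 0.31. The call at Sdc1 in pre-S cells was lost without the first 10 h library (limma FDR = 0.0668).

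**Figure D5:**
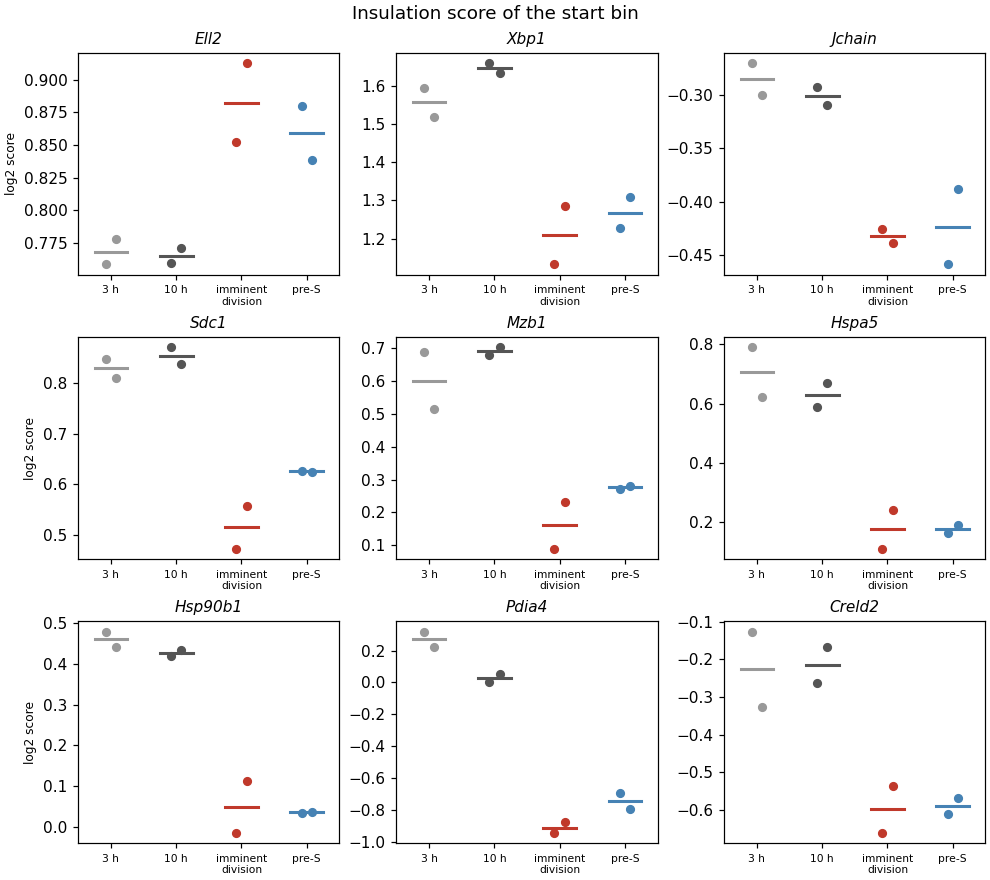
Insulation score of the 9 start bins in each library, as the log2 mean contact across the bin over 500 kb to either side minus the library median. Each point is 1 library, each bar is the mean of a group, and axes differ between panels. The 33 h points of Pdia4 lie between −0.944 and −0.692, below 0.00342 and 0.0515 at 10 h, and Ell2 has its highest points at 33 h.

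All 9 genes lay in the A compartment in every library, where 46.8% of the 23789 scored 100 kb bins were A. The compartment score is the first principal component of the contact correlation matrix, positive in A. Its sign was set on each chromosome so that A holds more gene starts. The share of A was taken over all bins and not over gene-start bins, which this sign favours. The score of Jchain fell but stayed positive: it was 1.01 and 0.905 at 3 h, 0.797 and 0.831 at 10 h, then 0.643 and 0.653 at imminent division, with 0.694 and 0.668 in pre-S cells. It fell by 0.17 at imminent division (SE 0.0375, limma FDR = 0.00531), as the 1 called gene where 22.1% of bins changed, and by 0.13 in pre-S cells (limma FDR = 0.0183). There Hsp90b1 also fell, from 1.07 and 1.03 to 0.929 and 0.938 (change −0.12, limma FDR = 0.0338), which made 2 genes where 25.1% of bins changed, 621 upwards and 5347 downwards, with a median of −0.050 over all bins. With the libraries brought to the same distribution of scores, neither Jchain (change −0.03, limma FDR = 0.446) nor Hsp90b1 (change −0.05, limma FDR = 0.129) passed in pre-S cells, and without the second imminent division library Hsp90b1 did not (limma FDR = 0.0521). No gene passed from 3 h to 10 h (3.23% of bins), with 3 genes at an unadjusted p under 0.05 by limma (16.7%). Without the second 10 h library no gene passed at imminent division, and without any 1 of the 10 h or pre-S libraries none passed in pre-S cells, where 3385 and then 3474 to 3800 bins did, against 5263 and 5968 with all libraries. Without the second 3 h library 5 genes passed from 3 h to 10 h, where 6282 of the 23789 bins then did, against 768 with all libraries.

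Ell2 stayed in A, but its compartment score differed between the 33 h groups. Ell2 was the 1 gene called, where 18.2% of bins differed (3832 higher and 490 lower at imminent division, median 0.045 over all bins). Its score was 0.931 and 0.876 at 3 h, 0.843 and 0.832 at 10 h, then 0.915 and 0.883 at imminent division, with 0.758 and 0.721 in pre-S cells (change 0.16 for imminent division over pre-S, SE 0.0339, limma FDR = 0.00552). The pre-S libraries were the lowest of the 8. The call was lost without the first imminent division library (limma FDR = 0.059) or the second pre-S library (limma FDR = 0.0721), and with the libraries brought to the same distribution the change was 0.07 (limma FDR = 0.0789).

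For each gene the 2 partners highest above the count expected at their distance were named, so high ratios follow from the ranking. The highest was the bin 350 kb downstream of Hspa5, with the starts of AI182371 and of the centriole gene Cntrl, with an observed over expected ratio of 7.97 and 7.49 at 3 h, 6.06 and 6.39 at 10 h, then 4.24 and 4.06 at imminent division, with 5.34 and 5.63 in pre-S cells. The ratio was highest at 3 h and lowest at imminent division without overlap, but its bin pair did not pass in any comparison (edgeR FDR = 0.183 for imminent division over 10 h). Jchain had its top partner 1700 kb downstream at Ythdc1 (mean ratio 4.25) and Hsp90b1 had its own 1700 kb upstream in Gnptab (3.97). The ratio of Jchain with Ythdc1 ran from 1.40 to 6.62 over the libraries, on a mean of 25.5 read pairs. Mzb1 met the bin of Etf1 700 kb downstream (3.99), Ell2 that of Erap1 1100 kb upstream (3.19), Sdc1 that of Ttc32 250 kb downstream (3.17) and Creld2 the bin of Lmf2, Ncaph2 and Tymp 550 kb downstream (2.98). The top partners of Xbp1, 400 kb upstream in Emid1 and Rhbdd3 (2.36), and of Pdia4, the Gimap bin 900 kb upstream (2.24), stood out least. None of the 18 partners named by this rule, 2 for each gene, was a DI in any of the 4 comparisons.

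The 9 loci lie on different chromosomes, which gives 36 pairs of loci. In windows of 500 kb to either side, the contacts summed over the 36 pairs were 1.17 to 1.33 times those expected from the coverage of the windows, on 701 to 1858 read pairs a library. Pairs of A compartment bins as a whole gave 1.22 to 1.32, so the 2 ranges overlapped. Xbp1 with Mzb1 had the highest mean ratio (3.31), then Xbp1 with Hspa5 (2.82) and Mzb1 with Hspa5 (2.63), and Jchain with Hspa5 had the lowest (0.383). Xbp1 with Mzb1 held 2.62 and 3.13 at 3 h, 3.72 and 3.28 at 10 h, then 3.22 and 3.33 at imminent division, with 3.87 and 3.33 in pre-S cells, above 1 in every library. This pair was picked as the highest of the 36, so high values follow from the ranking. The spread of single pairs of A compartment bins was not computed. The factors Ell2 and Xbp1 met less than expected (0.486). These windows hold many genes besides those of the set.

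Bins on other chromosomes whose interactivity followed that of Ell2 over the 8 libraries were those of Eif3a and Nanos1 (Pearson r 0.987), Naa11 (0.987) and a bin with Alg9 and Cryab (0.985). In all 554 of 12697 bins compared had an r above 0.9 with Ell2. At Ell2 all 33 h libraries lay above all earlier ones, so the likeness describes mainly that step. For Xbp1 the most alike were Pnma2 (0.960), Ralgps1 (0.958) and Myog (0.957), with 10 of 12351 bins above 0.9. The interactivity of Xbp1 passed in no comparison with the loess offsets, so this likeness follows no called change and was not tested.

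Around this set, 75 genes of the secretory pathway and of the super elongation complex, in which Ell family proteins work, were followed in the same fit. Between 10 h and imminent division interactivity rose at 14 and fell at 19 of them, with a median log2 change of −0.014, where 2952 and 2912 of 13276 gene-start bins rose and fell. Among 15 genes of ER translocation and signal peptide cleavage, 5 rose and 0 fell. Among 18 ER chaperones and foldases, 2 rose and 7 fell, and among 8 sensors and factors of the unfolded protein response, 0 rose and 3 fell. Of 11 genes of ER-associated degradation 2 rose and 4 fell, of 7 oligosaccharyltransferase genes 1 rose and 2 fell, of 8 ER to Golgi transport genes 1 rose and 1 fell, and of 8 genes of the super elongation complex 3 rose and 2 fell. For far contacts in the same comparison 8 of the 75 rose and 26 fell, with 3 rising and 4 falling among the translocation genes, where 3392 and 3430 of 13164 gene-start bins did. In pre-S cells 12 rose and 10 fell in summed contacts, where 2543 and 2393 of 13276 gene-start bins did. For far contacts there 7 rose and 19 fell, with 2 and 2 among the translocation genes, where 2454 and 2381 of 13164 did. In summed contacts 6 rose and 0 fell among the translocation genes, 0 and 3 among the chaperones, 1 and 2 each among the genes of the unfolded protein response, ER-associated degradation and ER to Golgi transport, 1 and 0 among the oligosaccharyltransferase genes, and 2 and 1 in the super elongation complex. From 3 h to 10 h 0 of 75 passed, where 9 of 13276 gene-start bins did, and between the 33 h groups 1 chaperone gene was lower at imminent division, where 539 of 13276 differed.

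The 3 genes with the smallest p in each direction came from 4 of these lists. Sec63, a partner of the ER translocon, held 2491 and 2567 normalised read pairs at 10 h and 2952 and 2981 at imminent division (log2 change 0.23, edgeR FDR = 0.000101). Eaf2, an Ell-associated factor, held 2380 and 2413 and then 2839 and 2731 (log2 change 0.22, edgeR FDR = 0.00021), and Spcs3, a subunit of signal peptidase, 1217 and 1324 and then 1530 and 1535 (log2 change 0.27, edgeR FDR = 0.00034). Mbtps1, the protease that activates the stress sensor Atf6, held 1707 and 1678 and then 1364 and 1399 (log2 change −0.29, edgeR FDR = 3.65e-05). The chaperone gene Hyou1 fell by 0.23, from 2379 and 2374 to 1996 and 2062, and the disulphide isomerase gene Txndc5 by 0.21, from 2223 and 2208 to 1896 and 1919. No library of the imminent division group overlapped with the 10 h group at these 6 genes. They were picked by their p in this comparison, so the lack of overlap is no added support.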

How the data were processed

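Before deposit, the authors used diffHic with cutadapt and bowtie2 for alignment to mm10, marked duplicate reads with Picard, and took out dangling ends and long fragments. They deposited raw read-pair counts for each pair of 50 kb bins, as 1 symmetric matrix with its diagonal for each library, without balancing. The matrices name no coordinates, so MboI fragments of GRCm38 (66 sequences) were assigned to bins by their midpoints, which gave the 53357 bins of each matrix. Genes came from GENCODE M21. Of 48088 autosomal bins, 756 were left out, namely bins with over 10% undetermined bases and bins whose interchromosomal coverage differed from the median by more than 4 times in either direction, since the ENCODE list of excluded regions was not used here. Totals of 88703088 to 218945191 read pairs a library gave the start bins of the 9 genes 808 to 4228 raw read pairs within 2 Mb each. Without molecular identifiers, read pairs are not independent molecules.

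Summed, near and far contacts were tested over all gene-start bins with at least 200 counts, and bin pairs over all autosomal cis pairs off the diagonal with a count of at least 10 and an abundance over 4-fold the interchromosomal background. Both used edgeR 4.0.16 in R 4.3.3 with loess offsets and a robust quasi-likelihood fit over all 8 libraries, without a dispersion trend for sums and with one for bin pairs. Bin pairs under 1.5 Mb apart had their own loess fit. Compartment scores (100 kb) and insulation scores (500 kb) were tested with limma 3.58.1. The Benjamini-Hochberg false discovery rate (FDR) was held at 5% over all features. Changes are the first group over the second. Bins and matrices were handled with Python 3.11.15, numpy 2.4.6 and pandas 2.3.3, and figures drawn with matplotlib 3.10.9. Each test was tried on simulated data.

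The 9 genes, the lists and the tests were chosen with earlier results of these data known. All 9 genes were named in every measure. Of partner bins the 2 with the highest observed over expected ratio were named for each gene, among those at least 100 kb away with a mean count of at least 10. Of DIs the pair with the smallest p in each direction was named, of the pathway lists the 3 genes with the smallest p in each direction, and of bins like Ell2 or Xbp1 the 3 with the highest r. Other DIs were named after their values were seen. The replicate numbers of the labels were not taken as pairs, because same-numbered libraries did not deviate together. Alternatives were TMM factors, a bin coverage offset, DESeq2 1.42.0, partners up to 1 Mb, adjacent bins left out, a filter of interactions on distance, other abundance and count limits, other bin and window sizes, quantile normalization, the replicate number as a block, and each library left out in turn. Naive, expanded and plasmablast cells were not analysed here.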

Additional observations from a re-analysis of the deposited data

Results flagged for a closer look

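Near contacts of Mzb1 differed between the 33 h groups. The log2 change for imminent division over pre-S was -0.175 (edgeR FDR = 0.0194), and both imminent division libraries were below both pre-S libraries. It was 1 of 9 genes, where 10.2% of gene-start bins differed, and it was lost with TMM factors (edgeR FDR = 0.0791). The compartment score of Ell2 differed between the same groups by 0.159 (limma FDR = 0.00552), with both pre-S libraries below all others, where 18.2% of bins differed, and the difference was lost under quantile normalization (limma FDR = 0.0789). Mouse strain and sort gate differ together with these groups and cannot be told apart from them.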

How the results depend on the processing

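Of 2571 values recomputed under an alternative, 2276 kept their direction or stayed uncalled on the same side of the threshold, 84 newly passed, 205 no longer passed and 6 turned. Genes called, in the order 10 h over 3 h, imminent division over 10 h, imminent division over pre-S and pre-S over 10 h, ranged over libraries left out from 0 to 0, 3 to 6, 0 to 1 and 2 to 4 for sums, 0 to 1, 4 to 6, 0 to 1 and 2 to 5 for near contacts, 0 to 1, 0 to 6, 0 to 0 and 0 to 5 for far contacts, 0 to 5, 0 to 2, 0 to 2 and 0 to 4 for compartments, and 0 to 1, 7 to 8, 0 to 1 and 6 to 7 for insulation, and DIs from 0 to 0, 6 to 31, 0 to 0 and 1 to 4. An arm left with 1 library is assumed to vary like the other groups. With TMM factors 8 genes were called for sums at imminent division (7438 of 13276 gene-start bins), 2 for far contacts there (7196 of 13164) and 0 for near contacts between the 33 h groups (179 of 13244). With bin coverage in the offsets, sums gave 3 genes between the 33 h groups (1563 bins) and 2 in pre-S cells (3047), far contacts 2 from 3 h to 10 h (1382) and 1 between the 33 h groups (3759), near contacts 2 in pre-S cells (2238), and DIs 10 between the 33 h groups (24456 pairs) and 1 in pre-S cells (8597). Partners up to 1 Mb gave 1 gene between the 33 h groups (984 of 13264), and the interaction filter gave 2 there (2525 of 12672) and 2 in pre-S cells (4391). Compartments in 250 kb bins gave 3, 4, 2 and 4 genes in the order above (1119, 3298, 2073 and 3593 of 9496 bins), and quantile normalization gave 2 from 3 h to 10 h (1952 of 23789), 2 at imminent division (7387) and 0 in pre-S cells (5447). Insulation gave 1 gene between the 33 h groups with a 1 Mb window (5331 of 45895 bins) and 1 with quantile normalization (10982 of 46276). DIs at imminent division numbered 6 by DESeq2 (7427 of 101201 pairs), which shared 3 with the 27 and gave no adjusted p for 22 of them, and 14 at 2-fold abundance (11465 of 7001081), all among the 27, and 2 in pre-S cells at 2-fold abundance (3624). The cause of these shifts was not tested.

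The 6 that turned were Pdia4 in sums under the interaction filter at imminent division (0.136) and between the 33 h groups (0.207), Sdc1 in sums under that filter (0.248), in far contacts with TMM (0.0255) and in compartment at 250 kb (-0.0673), and Xbp1 in near contacts with TMM (-0.135). Same-numbered libraries correlated from −0.44 to 0.14 in their deviations for sums and from −0.76 to 0.25 for insulation, so the replicate numbers gave no pairs. With the replicate number as a block, 4 genes were called for sums at imminent division (5196 of 13276 bins), 3 for near contacts in pre-S cells (3429 of 13244), 25 DIs at imminent division (25711 of 1458474 pairs) and 3 in pre-S cells (7033), all DIs among those called without it.

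Counts over all features shifted between settings. Higher and lower compartment scores went under quantile normalization from 621 and 5347 to 2682 and 2765 in pre-S cells, from 3832 and 490 to 2438 and 2479 between the 33 h groups and from 234 and 534 to 991 and 961 from 3 h to 10 h, and insulation between the 33 h groups went from 3005 and 1108 to 5731 and 5251. With bin coverage, far contacts from 3 h to 10 h went from 171 and 82 to 787 and 595, and DIs in pre-S cells from 5090 and 3627 to 3176 and 5421. DESeq2 changes the test as well as the scaling, and by it DIs were 89 and 1303 in pre-S cells, where 101201 of 1458474 pairs had an adjusted p, and went from 1980 and 3440 to 137 and 57 between the 33 h groups, where all pairs had one. Sums from 3 h to 10 h went from 8 and 1 to 131 and 112 with bin coverage and to 1 and 0 with TMM, where those between the 33 h groups went from 283 and 256 to 11 and 1, and near contacts from 3 h to 10 h went from 24 and 33 to 1 and 0 with TMM and 105 and 84 with bin coverage.

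Over libraries left out, all features called from 3 h to 10 h and between the 33 h groups ranged from 1 to 161 and 11 to 1163 for sums, 2 to 267 and 223 to 1800 for near contacts, 0 to 857 and 174 to 1625 for far contacts, 79 to 6282 and 1779 to 7472 for compartments and 0 to 5124 and 393 to 12970 for insulation. At imminent division and in pre-S cells they ranged from 3164 to 6615 and 1671 to 5675 for sums, 2749 to 5655 and 1344 to 4409, 4388 to 7317 and 1901 to 5480, 3281 to 7270 and 3474 to 9035, and 15868 to 32146 and 16726 to 32153, in the same order of measures.

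With 2 libraries a group, the number of libraries limits the precision. A 50 kb bin cannot separate a gene from its neighbours.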
